A study of Mus musculus with 6 samples.

Results

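Heme is built along a single route of enzymes, and 9 genes of that route are described here in megakaryocyte–erythroid progenitors (MEPs) with and without *Nanog*. They are the enzyme genes *Alas1*, *Alas2*, *Alad*, *Uros*, *Urod*, *Cpox*, *Ppox* and *Fech*, in pathway order, and the carrier gene *Slc25a38*. They were chosen by gene name, and all 9 were found by their Ensembl identifiers among the 12101 genes listed. All 9 also had at least 1 count per 1000000 reads (CPM) in at least 3 libraries, the level required for testing.

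The MEPs were sorted from adult mice, strain CD-1 by the labels, that all carried both parts of an inducible *Nanog* transgene. A reverse tetracycline transactivator (M2rtTA) was driven from the *Rosa26* locus, and a tetracycline-responsive *Nanog* stood at the *Col1a1* locus, so neither part is restricted to blood cells. One group drank doxycycline (dox) in water for 5 days, and the other, of the same genotype, had none, with 3 RNA sequencing libraries in each. No mice without the transgenes drank dox here, so effects of dox and of *Nanog* cannot be told apart. The labels do not say whether replicates came from separate or pooled animals, so p-values measure the spread between these libraries only.

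Synthesis of heme starts in the mitochondrion, where aminolevulinate synthase joins glycine to succinyl-CoA. This step limits the rate of the pathway and exists as a housekeeping isozyme, ALAS1, used by most cells, and an erythroid isozyme, ALAS2, induced when red cells mature. The middle steps run in the cytosol and the last ones in the mitochondrion, where iron is inserted into protoporphyrin. Erythroid transcription factors of the GATA and KLF families are known to raise the pathway during red cell development, and *Alas2* messenger RNA is in addition held back from translation when iron is scarce.

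Libraries held between 11264803 and 16153600 reads on listed genes, and 3 reads, the smallest amount taken as different from 0, were worth between 0.193 and 0.273 CPM. Such limits cover counting error only. *Nanog* itself had between 15959 and 19609 reads in the dox-treated and between 1 and 13 in the untreated libraries, so every library matched its label. Over all 12088 genes tested with limma, 555 were higher and 384 lower with dox at an adjusted p under 0.05. Dox-treated replicate 3 stood apart from the other dox-treated libraries. The summed level of 15 erythroid marker genes was 6359 CPM in it, against 3522 and 3484 CPM in dox-treated replicates 1 and 2 and between 5662 and 5830 CPM in the untreated libraries. *Car1*, for a carbonic anhydrase of early erythroid cells, made up 3359 CPM of it. Without *Car1*, left out after its values were seen, the other 14 markers summed to 2062, 2204 and 3000 CPM in dox-treated replicates 1, 2 and 3 and to between 3190 and 3755 CPM in untreated libraries, so that replicate 3 lay between the other dox-treated and the untreated libraries. Values without this library are therefore added for the heme genes and most named genes around the pathway. Calls of the marker lists are given with all libraries only.

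The labelled cell type was checked against its markers. Erythroid markers were present in every library, with *Klf1* between 191 and 385 CPM and *Gata1* between 149 and 245 CPM, and of the 16 listed *Ahsp* alone was not found in the table. Markers of granulocytes and monocytes were present too, although the sort was designed to leave those cells out. *Mpo*, a granule enzyme of neutrophil precursors, was at 3347, 1470.0 and 2477 CPM in untreated replicates 1, 2 and 3 and at 506, 460 and 324 CPM in the dox-treated ones. In bulk libraries of this kind, fewer cells of a type and less RNA per cell cannot be told apart.

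Regulatory sequence is known for several of these genes, and the stretches printed here set the isozymes side by side and add *Cpox*, which like *Alas2* carried both kinds of erythroid motif searched. Translation of *Alas2* is controlled by an iron-responsive element, a hairpin in the 5′ untranslated region. A search of that region of transcript *Alas2-001* for the hairpin's loop found it once, at chrX:146982003-146982028 on the plus strand of NCBIM37, in exon 1. The element is printed with its loop in capitals.
*Alas2* iron-responsive element: ggttcgtcctCAGTGCagggcaacag
Promoters were read from RefSeq windows of GRCm38.p6, taking the 250 bases before each start. Windows were found for 8 of the 9 genes, 11 windows in all, and none was found for *Fech*. They were searched on both strands for GATA words, which are AGATAA or TGATAA or either of these with G as the last base, and for the KLF word CACCC. Capitals mark these words, which appear as their reverse complements (TTATCT for the first, GGGTG for the last) when they lie on the other strand. Bases that NCBIM37 places inside the gene's own transcripts are not printed.
*Alas1* (chr9:106150458-106150535, NCBIM37, minus strand): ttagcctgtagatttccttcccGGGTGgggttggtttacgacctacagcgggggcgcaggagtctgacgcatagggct
*Alas2* (chrX:146981710-146981917, NCBIM37, plus strand): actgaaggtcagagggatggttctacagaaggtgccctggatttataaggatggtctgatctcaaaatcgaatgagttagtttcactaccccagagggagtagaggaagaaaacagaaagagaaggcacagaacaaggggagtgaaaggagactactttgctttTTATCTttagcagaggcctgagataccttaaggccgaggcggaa
*Cpox* (chr16:58670071-58670320, NCBIM37, plus strand): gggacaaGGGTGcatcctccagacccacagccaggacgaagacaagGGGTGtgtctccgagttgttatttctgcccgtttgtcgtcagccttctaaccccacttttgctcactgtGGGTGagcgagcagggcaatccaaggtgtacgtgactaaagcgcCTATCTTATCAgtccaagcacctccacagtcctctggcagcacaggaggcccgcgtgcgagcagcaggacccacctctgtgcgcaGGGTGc
*Cpox* held a pair of overlapping GATA words starting 91 and 86 bases before its start and 4 CACCC words. *Alas2* held 1 GATA word 86 bases before its start, and its 3 CACCC words lay 40, 35 and 30 bases before it, beyond the stretch printed. Neither window of *Alas1* held a GATA word. Of the 11 windows, 3 held a GATA word and 6 a CACCC word. Over the 8 genes, 3 had a GATA word (*Alas2*, *Uros* and *Cpox*) and 5 had a CACCC word (*Alas1*, *Alas2*, *Alad*, *Cpox* and *Slc25a38*). Of all 32851 mouse windows, 26.5% held a GATA word and 52.0% a CACCC word, so that such matches are common and describe letters, not binding.

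Across the route, 1 of the 9 genes passed the test in dox-treated MEPs. *Alas1* fell, where 3.18% of all genes tested were called lower, and none of the 9 was called higher, against 4.59% of all genes. At an unadjusted p under 0.05, 3 genes were lower and 1 was higher, against 13.6% and 15.6% of all genes. The groups did not overlap for 4 genes, as for 35.9% of all genes: *Alas1*, *Alad* and *Cpox* were lower in every dox-treated library (18.2% of all genes were apart in this direction) and *Fech* was higher in every one (17.7%). The other 5 genes overlapped between groups. The median log2 fold change of the 9 genes was -0.038, and that of all genes tested was -0.026.

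**Figure D1:**
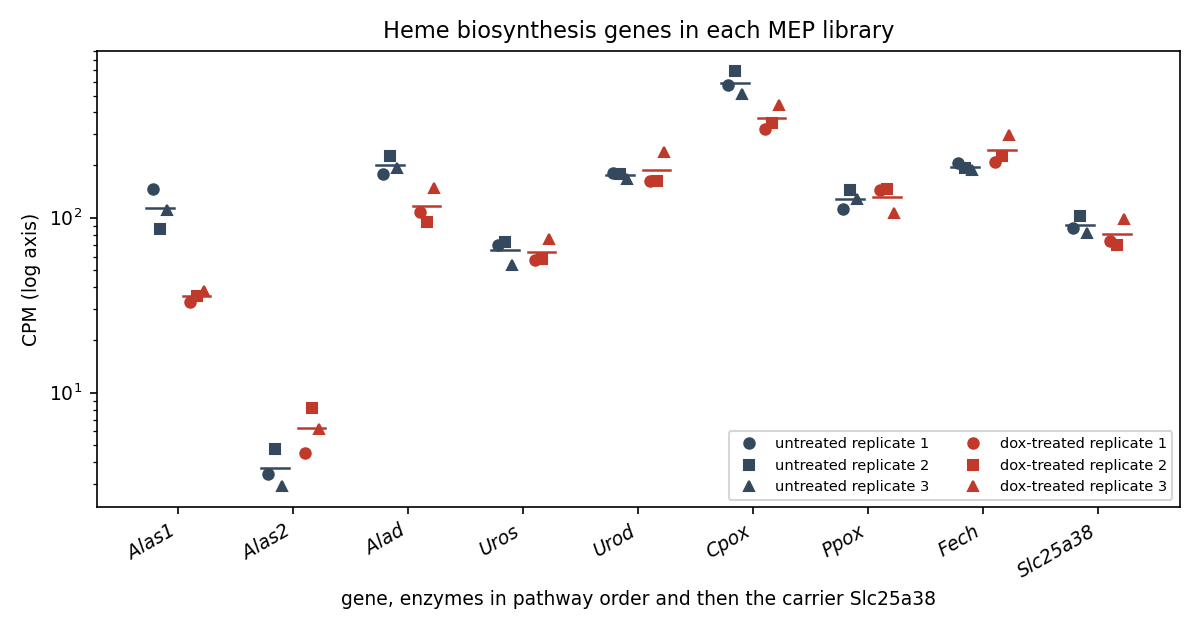
Expression of the heme biosynthesis genes in each MEP library, in CPM on a log axis, for untreated (dark) and dox-treated (red) replicates 1 to 3, with the enzyme genes in pathway order and then the carrier gene *Slc25a38*. Points are single libraries and horizontal lines are group means (n = 3). The groups are furthest apart for *Alas1*, where every dox-treated library is at or below 37.9 CPM and every untreated one at or above 86.3 CPM.

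*Alas1*, the housekeeping form of the rate-limiting enzyme (ENSMUSG00000032786, chr9:106135786-106150457, minus strand), fell in every dox-treated library. It was measured at 33.0, 35.5 and 37.9 CPM in dox-treated replicates 1, 2 and 3 and at 145.7, 86.3 and 110.5 CPM in the untreated ones. The dox-treated libraries were close together and all far below the untreated ones, which spread widely. The means were 35.5 ± 2.44 CPM (SD of 3 libraries) and 114.2 ± 29.9 CPM (SD of 3 libraries), a log2 fold change of -1.66 (standard error, SE, 0.20, 95% interval -2.16 to -1.15, adjusted p = 0.015 by limma). Only 1.75% of genes tested had a lower fold change. A two-sided exact permutation test gave p = 0.1, the smallest that 3 libraries against 3 allow. The fall was not carried by dox-treated replicate 3, since it was -1.70 without that library, and without any other single library it lay between -1.84 and -1.46. The adjusted p was above 0.05 without dox-treated replicate 1 (0.060), dox-treated replicate 2 (0.059) or untreated replicate 3 (0.064).

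*Alas2*, the erythroid isozyme whose loss causes a sideroblastic anemia (ENSMUSG00000025270, chrX:146981918-147005181, plus strand), was the least expressed of the 9 genes. Its values were 4.49, 8.19 and 6.22 CPM in dox-treated replicates, from 61, 110 and 97 reads, and 3.42, 4.73 and 2.91 CPM in the untreated ones, from 44, 64 and 32 reads. Dox-treated replicate 1 lay below untreated replicate 2, so the groups overlapped. The mean was higher with dox, 6.30 ± 1.85 against 3.69 ± 0.935 CPM (SD of 3 libraries), but the difference did not pass the test (log2 fold change 0.75, SE 0.28, 95% interval 0.073 to 1.43, unadjusted p = 0.035, adjusted p = 0.14). After quantile normalization it was 0.43 (adjusted p = 0.45), and with single libraries left out it lay between 0.54 and 0.97, with 0.74 without dox-treated replicate 3. Dox-treated replicates ranked in the order 2, 3, 1 for *Alas2*. Only 2 of the 15 erythroid markers, the globin genes *Hba-a2* and *Hbb-b1*, had that order. The share of all genes with it was not computed, so no likeness to the globin genes is read from it.

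Reads of the isozymes could be told apart from each other, since their transcripts shared 0 words of 30 bases. *Alas1* overlaps *4930500F10Rik*, a long noncoding RNA gene not among the genes listed, on the opposite strand over 167 bases. *Alas2* overlaps *Apex2*, which encodes a DNA repair nuclease on the opposite strand, over 311 of its 2403 exonic bases (12.9%), and the use of strand in counting is not given in the sources used here. *Apex2* was at 15.6 ± 3.22 CPM (SD of 3 libraries) with dox and 15.5 ± 2.36 CPM (SD of 3 libraries) without, and the part of this overlap in the values of *Alas2* was not tested.

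The balance of the isozymes differed between the groups, and their sum was lower with dox. The log2 ratio of *Alas2* to *Alas1* was -2.87, -2.11 and -2.60 with dox and -5.40, -4.18 and -5.22 without it, in replicates 1, 2 and 3. Every dox-treated ratio was above every untreated ratio. The difference was 2.41 (SE 0.44), a 5.31-fold shift (two-sided exact permutation test, p = 0.1, the smallest possible). Leaving out single libraries gave values from 2.18 to 2.79. Most of this shift lay in the denominator, since the log2 fold changes were -1.66 for *Alas1* and 0.75 for *Alas2*. Per kilobase of transcript, the scale on which genes can be compared, *Alas2* made up 12.9%, 19.99% and 15.1% of both isozymes in dox-treated and 2.48%, 5.61% and 2.78% in untreated libraries. *Alas1* remained the main form in every library. The sum of both was 19.9 ± 1.80 CPM per kilobase with dox and 55.5 ± 13.7 without (SD of 3 libraries).

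**Figure D2:**
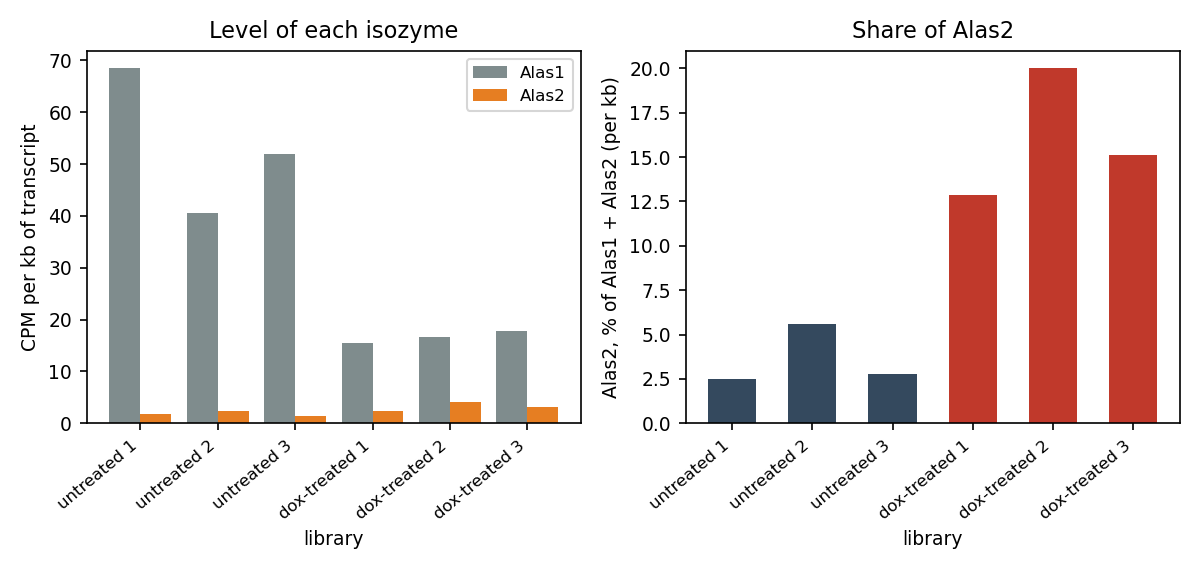
The left panel shows *Alas1* and *Alas2* in each library in CPM per kilobase of transcript, and the right panel the percentage of *Alas2* in their sum, with 1 bar per library. *Alas2* makes up between 2.48% and 5.61% in untreated and between 12.9% and 19.99% in dox-treated libraries, and *Alas1* stands at 40.5 CPM per kilobase or more in untreated and at 17.8 or less in dox-treated libraries.

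Markers of granulocytes and monocytes moved with *Alas1*. All 9 genes of that list (*Elane*, *Mpo*, *Prtn3*, *Ctsg*, *Cebpa*, *Cebpe*, *Csf1r*, *Ly6c2* and *Fcnb*) were lower in every dox-treated library, 8 of them past the threshold, where 3.18% of all genes were called lower and 18.2% were apart in this direction, with a median log2 fold change of -2.79 against -0.026. Their summed level ran from 489.0 to 722.0 CPM in dox-treated and from 2317 to 5348 CPM in untreated libraries. Within the untreated group *Alas1* was highest in replicate 1, then 3, then 2, and all 9 markers had that same order. Within the dox-treated group none of the 9 had the order of *Alas1*, which was highest in replicate 3, where the summed markers were lowest. None of the 9 markers was at 0 in any library. The part these markers have in the fall of *Alas1* was not tested.

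**Figure D3:**
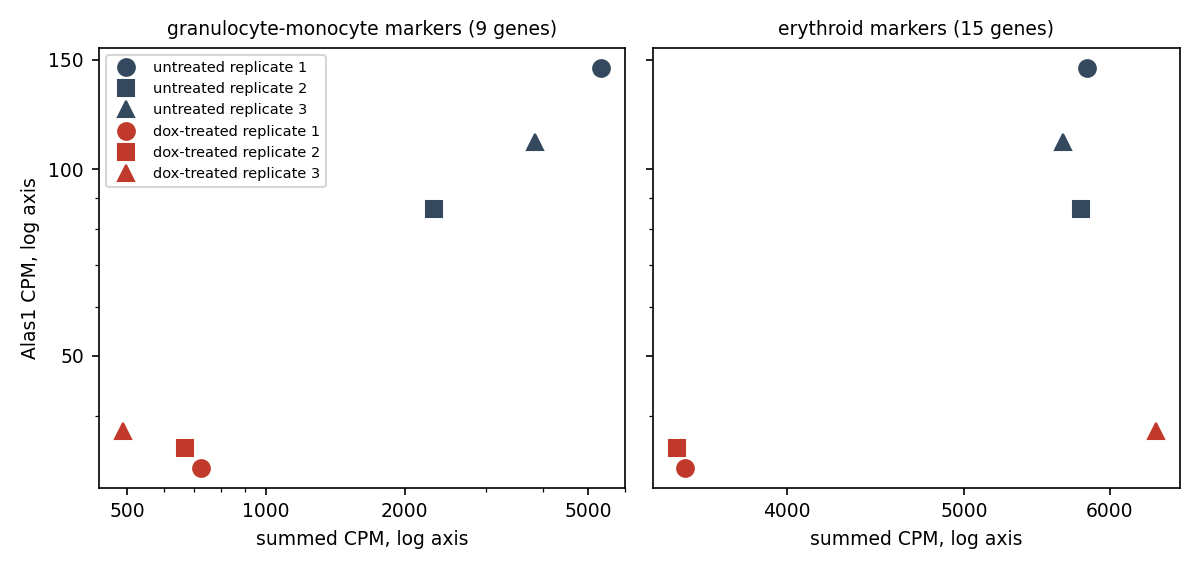
*Alas1* in CPM against the summed CPM of 9 granulocyte-monocyte markers (left) and of 15 erythroid markers (right), all on log axes, with 1 point per library. Untreated libraries rank alike on both axes of the left panel and dox-treated ones do not. On the right, dox-treated replicate 3 stands at 6359 CPM of erythroid markers with 37.9 CPM of *Alas1*, and *Car1* alone gives 3359 CPM of that sum.

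Other marker lists were compared in the same way, and their counts stand beside 3.18% of all genes called lower and 4.59% called higher. Of 15 erythroid markers 2 fell, *Ermap* (log2 fold change -0.77, adjusted p = 0.024), which encodes an erythroblast membrane protein, and the ankyrin gene *Ank1* (-0.71, adjusted p = 0.039). In mean 9 of the 15 were lower and 6 higher, with a median of -0.33. The furthest in the higher direction was *Hbb-b1*, which did not pass (log2 fold change 1.21, adjusted p = 0.14). Of the 4 mast cell markers found, *Cpa3* and *Ms4a2* rose, and the summed level of the 4 was between 195.6 and 366.8 CPM with dox and between 59.8 and 122.9 CPM without. Most of that sum was *Gata2*, which did not pass (adjusted p = 0.070), and *Mcpt8* had a lower mean with dox (log2 fold change -0.93, adjusted p = 0.20). Without *Gata2* the other 3 summed to between 59.8 and 81.3 CPM with dox and between 7.98 and 15.6 CPM without. Among 8 megakaryocyte markers *Gp1ba* and *Gp9* rose and *Vwf* fell, and their summed level was between 126.5 and 430.4 CPM with dox, lowest in replicate 3, and between 86.2 and 124.4 CPM without. *Itga2b*, which did not pass (adjusted p = 0.069), made up 319.0, 314.1 and 66.9 CPM of it in dox-treated replicates 1, 2 and 3. Without *Itga2b* the groups overlapped, at 59.6 to 111.3 CPM with dox and 62.1 to 86.9 CPM without. None of 6 lymphoid markers passed the test, with 2 of the 6 lower and 4 higher in mean. Whether these marker levels have a part in the values of the heme genes was not tested.

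The genes whose levels followed *Alas1* most closely over the 6 libraries were *Mgam*, *Nkg7* and *Ms4a3*, with Pearson correlations of log2 values of 0.998, 0.997 and 0.997. These coefficients describe a shared pattern in which the difference between groups takes the largest part, and they carry no test. *Mgam* fell from a mean of 13.9 to 1.95 CPM, *Nkg7* from 38.8 to 8.54 CPM and *Ms4a3* from 70.9 to 11.8 CPM. For *Alas2* they were *Tmem9* (0.992), *Hist1h2bc* (0.984) and *Dcbld2* (0.982), none of which passed the test. *Tmem9* had a log2 fold change of 0.24 and *Dcbld2* of 0.75.

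Of the cytosolic steps, none of *Alad*, *Uros* and *Urod* passed the test with all libraries in. *Alad*, which encodes the enzyme that condenses aminolevulinate into porphobilinogen (ENSMUSG00000028393, chr4:62170203-62180952, minus strand), was at 107.6, 94.6 and 147.5 CPM in dox-treated and at 178.5, 225.9 and 192.6 CPM in untreated replicates. Every dox-treated library was below every untreated one, with dox-treated replicate 3 nearest to them. The means were 116.6 ± 27.6 and 199.0 ± 24.4 CPM (SD of 3 libraries), and the log2 fold change of -0.79 (SE 0.20, 95% interval -1.27 to -0.31) missed the threshold (adjusted p = 0.066). Without dox-treated replicate 3 it was -0.97 (adjusted p = 0.016).

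*Uros* and *Urod*, which encode the enzymes that close the ring and trim its side chains, did not separate the groups. *Uros* (ENSMUSG00000030979, chr7:140877926-140901755, minus strand) was at 57.5, 58.0 and 75.6 CPM with dox and at 69.8, 72.8 and 53.7 CPM without. *Urod* (ENSMUSG00000028684, chr4:116662570-116667018, minus strand) was at 161.8, 161.3 and 237.9 CPM with dox and at 180.1, 179.0 and 166.2 CPM without. In both genes dox-treated replicate 3 was the highest of all 6 libraries and dox-treated replicates 1 and 2 were nearly equal. The log2 fold changes were -0.038 (95% interval -0.47 to 0.40) for *Uros* and 0.071 (95% interval -0.37 to 0.51) for *Urod*, with adjusted p = 0.90 and 0.81. Without dox-treated replicate 3 they were -0.17 and -0.12 (adjusted p = 0.44 and 0.33). The direction of *Uros* turned with 6 of 18 alternative settings and that of *Urod* with 2 of 18. *Uros* overlaps *Bccip* on the opposite strand over 740 bases.

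Of the mitochondrial steps, *Cpox* was lower and *Fech* was higher in every dox-treated library, and neither passed the test. *Cpox*, for coproporphyrinogen oxidase (ENSMUSG00000022742, chr16:58670321-58680504, plus strand), was at 322.0, 349.7 and 441.2 CPM in dox-treated and at 570.6, 686.1 and 512.5 CPM in untreated replicates. Here too dox-treated replicate 3 was nearest to the untreated libraries without reaching them. The means were 371.0 ± 62.4 and 589.7 ± 88.4 CPM (SD of 3 libraries), a log2 fold change of -0.67 (SE 0.17, 95% interval -1.10 to -0.24, adjusted p = 0.072). Without dox-treated replicate 3 it was -0.80 (adjusted p = 0.025).

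*Ppox*, for protoporphyrinogen oxidase (ENSMUSG00000062729, chr1:173206121-173211317, minus strand), was at 144.3, 145.7 and 106.5 CPM with dox and at 111.5, 144.1 and 128.3 CPM without. It was the only one of the 9 in which dox-treated replicate 3 was the lowest dox-treated library, and the groups overlapped. The log2 fold change was 0.040 (95% interval -0.39 to 0.47, adjusted p = 0.90), with a direction that turned in 3 of 18 alternative settings, and without dox-treated replicate 3 it was 0.19 (adjusted p = 0.32). *Ppox* overlaps *B4galt3* on the opposite strand over 907 bases.

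*Fech*, for ferrochelatase, the enzyme that inserts iron (ENSMUSG00000024588, chromosome 18), was at 209.6, 226.5 and 297.4 CPM with dox and at 204.8, 193.5 and 187.9 CPM without. Dox-treated replicate 1 was above untreated replicate 1 by a narrow margin, and replicate 3 was well above all others. The log2 fold change was 0.31 (SE 0.16, 95% interval -0.076 to 0.69, adjusted p = 0.25), and without dox-treated replicate 3 it was 0.16 (adjusted p = 0.23). After quantile normalization it was 0.44 (adjusted p = 0.075).

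*Slc25a38*, for the mitochondrial carrier that brings in glycine for the first step (ENSMUSG00000032519, chr9:120019492-120033622, plus strand), was at 73.2, 69.8 and 97.9 CPM with dox and at 87.0, 102.3 and 82.3 CPM without. Dox-treated replicates 1 and 2 were below every untreated library, and replicate 3 was above 2 of them. The log2 fold change was -0.18 (95% interval -0.60 to 0.24, adjusted p = 0.50) and without dox-treated replicate 3 it was -0.34 (adjusted p = 0.0998). Other alternatives brought it closer to 0, to -0.092 without dox-treated replicate 2, -0.093 without untreated replicate 2 and -0.074 at equal totals of reads.

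Dox-treated replicate 3 was thus the highest dox-treated library for 7 of the 9 genes, with *Alas2* (middle) and *Ppox* (lowest) as exceptions. It exceeded the mean of the other dox-treated libraries by 0.56 for *Urod*, 0.55 for *Alad* and 0.45 for *Slc25a38* on the log2 scale, and by 0.15 for *Alas1*. It was also the highest dox-treated library for 12 of the 15 erythroid markers, and their part in these values was not tested. The share of all genes with this library highest was not computed, so neither count has a background. When dox-treated replicate 3 was left out, 3 of the 9 genes were called lower, namely *Alas1*, *Alad* and *Cpox*. In that fit 14% of all genes were called lower, and none of the 9 was called higher, against 14.9%.

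**Figure D4:**
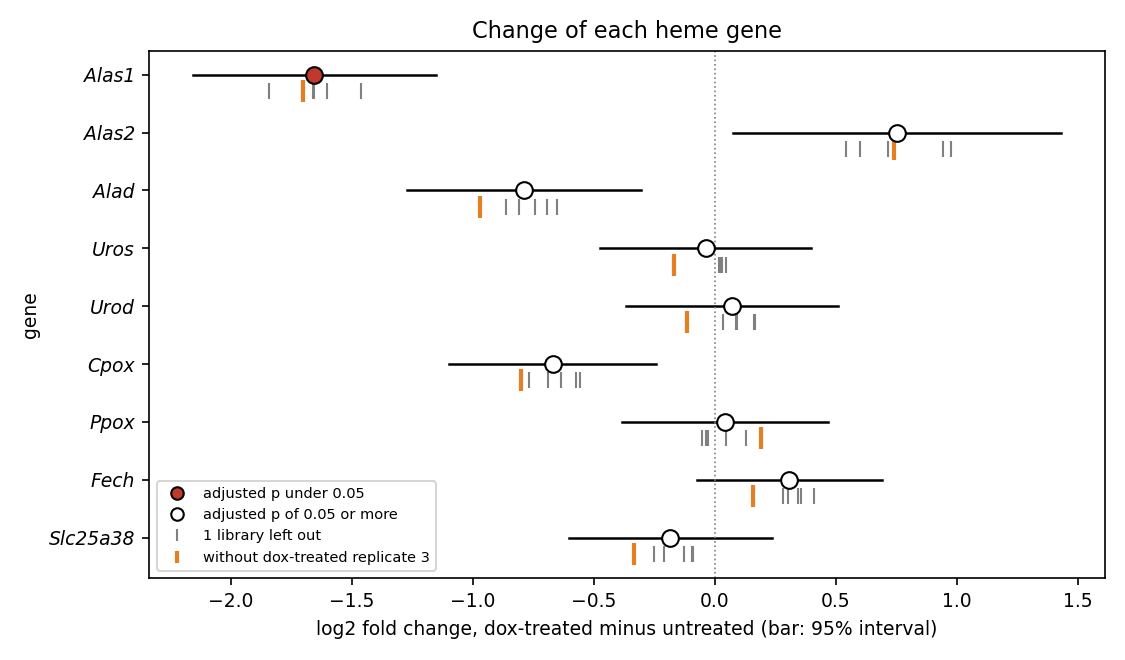
Log2 fold change of each heme gene, dox-treated minus untreated, with its 95% interval from limma (n = 3 per group). The circle is red where the adjusted p is under 0.05, ticks below each bar show the value with 1 library left out, and the orange tick is the value without dox-treated replicate 3. *Alas1* at -1.66 is the only red circle, and the orange tick lies left of the circle for every gene but *Ppox*.

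Levels of the 9 genes were compared per kilobase, using the median length of each gene's transcripts. In untreated MEPs the order of mean levels was *Cpox* (185 CPM per kilobase), *Urod* (180), *Alad* (162), *Fech* (94.3), *Slc25a38* (92.8), *Ppox* (70.3), *Uros* (62.6), *Alas1* (53.6) and *Alas2* (1.88). Neighbours among the first 3 genes overlapped in range, and so did *Fech* with *Slc25a38* and *Ppox* with *Uros* and *Uros* with *Alas1*. Gaps without overlap lay between *Alad* and *Fech*, between *Slc25a38* and *Ppox* and between *Alas1* and *Alas2*. In dox-treated MEPs *Urod* came first at 192 CPM per kilobase, clear of *Fech* (118.0), and every neighbouring pair from *Fech* down to *Uros* (61.0) overlapped. *Alas1* then stood clear of *Uros*, at 16.7 CPM per kilobase, and *Alas2* clear of *Alas1*, at 3.21. With the longest transcript of each gene in place of the median, 5 of the 9 genes changed rank in each group, and *Alas1* and *Alas2* kept the lowest places in both.

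Genes around the pathway were taken from 5 lists that name 72 genes, of which 69 were found and all were tested. None of the 69 was called lower and 2 were called higher, or 2.90% in either direction against 7.77% of all genes (limma). At an unadjusted p under 0.05, 14 were lower and 2 higher, where 13.6% and 15.6% of all genes were. Without dox-treated replicate 3, 25 of the 69 (36.2%) were called lower, where 14% of all genes were. In that fit 2 were called higher, where 14.9% of all genes were. With all libraries in, most means were lower with dox, 55 of 69, where 6367 of all 12088 genes tested had a lower mean. The median log2 fold change of the 69 was -0.22 against -0.026 over all genes.

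**Figure D5:**
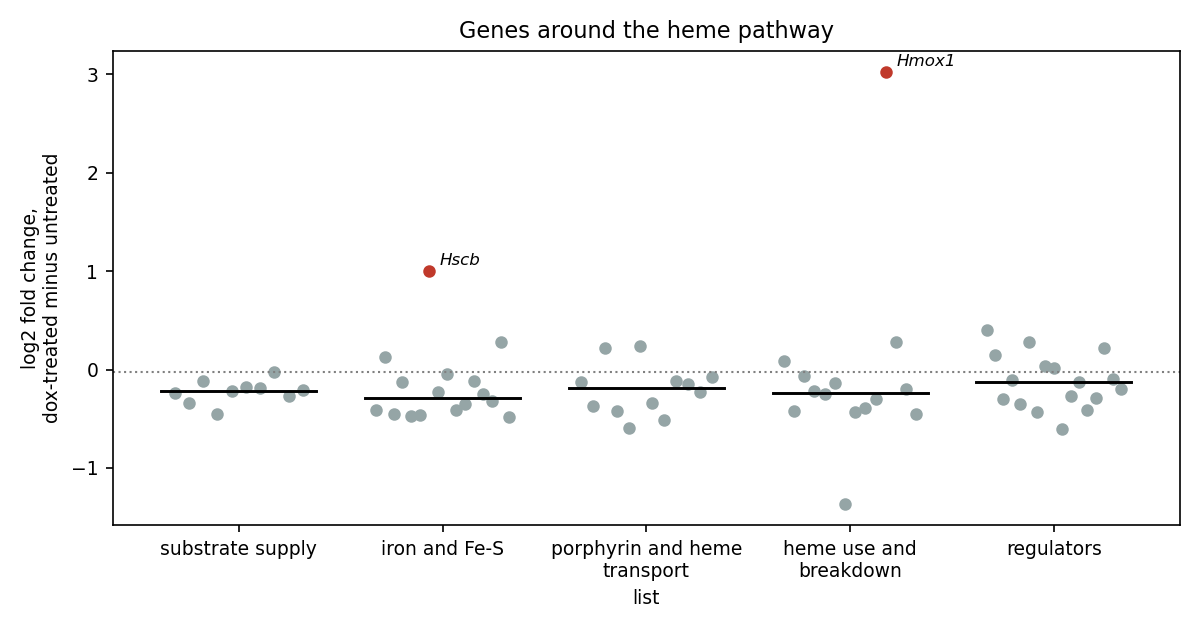
Log2 fold change, dox-treated minus untreated, of each of 69 genes in 5 lists around the heme pathway. Each point is a gene, red where the adjusted p is under 0.05, bars are list medians, and the dotted line is the median of all genes tested (-0.026). *Hmox1* at 3.02 and *Hscb* at 0.999 are the red points, and every list median lies below the dotted line.

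Breakdown of heme held the largest change. *Hmox1*, for heme oxygenase, the inducible enzyme that opens the heme ring and frees its iron, had 94, 127 and 88 reads in dox-treated and 10, 13 and 9 reads in untreated replicates. The groups were far apart at these low counts, 7.34 ± 1.94 against 0.852 ± 0.0960 CPM (SD of 3 libraries). The log2 fold change was 3.02 (SE 0.21, adjusted p = 0.0044), and it passed the threshold in all 18 alternatives. Its constitutive relative *Hmox2* was at 38.1, 45.4 and 48.0 CPM with dox and between 34.9 and 36.8 CPM without, a log2 fold change of 0.28 that did not pass (adjusted p = 0.20). *Cybb*, for the heme-bearing subunit of the phagocyte oxidase, was at 6.99, 7.07 and 5.26 CPM with dox and at 27.2, 9.83 and 16.7 CPM without (log2 fold change -1.36, adjusted p = 0.080). Without dox-treated replicate 3 its log2 fold change was -1.22 (adjusted p = 0.093). Its untreated libraries had the order of *Alas1*. The 14 genes of heme use and breakdown had a median of -0.24.

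Iron handling and iron–sulfur cluster assembly held the other call. *Hscb*, for a cochaperone of cluster assembly, rose from 26.7, 19.6 and 28.5 CPM in untreated to 51.7, 54.4 and 42.4 CPM in dox-treated replicates, with no overlap. The log2 fold change was 0.999 (SE 0.19, adjusted p = 0.036). It passed in 11 of 18 alternatives, and of the 6 that leave out a library only in the one without dox-treated replicate 3, with adjusted p values from 0.0041 to 0.13 over all 18. The other 15 genes of the list did not pass, and 13 of the 16 were lower in mean, with a median of -0.29. *Slc25a37*, for mitoferrin, which carries iron to ferrochelatase, was at 80.0, 81.6 and 73.7 CPM with dox and at 101.9, 126.6 and 101.4 CPM without (log2 fold change -0.48, adjusted p = 0.075). Without dox-treated replicate 3 its log2 fold change was -0.44 (adjusted p = 0.065).

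Substrate supply was lower in mean for all 10 genes, with a median of -0.21 and no call. *Sfxn1*, for a mitochondrial serine carrier, was at 179.9 ± 25.1 CPM (SD of 3 libraries) with dox and 244.6 ± 13.5 CPM (SD of 3 libraries) without (log2 fold change -0.45, adjusted p = 0.090). For *Dlst*, a subunit gene of the complex that makes succinyl-CoA, the log2 fold change was -0.34 (adjusted p = 0.19). Both were lower in every dox-treated library, and without dox-treated replicate 3 both passed (-0.56, adjusted p = 0.019, and -0.48, adjusted p = 0.021).

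Of 12 genes of porphyrin and heme transport 10 were lower in mean and none was called, with a median of -0.19. *Slc46a1* was at 1.36 ± 0.413 CPM with dox and 1.89 ± 0.225 CPM without (SD of 3 libraries), and *Pgrmc2* at 66.1 ± 1.21 and 84.5 ± 13.4 CPM (SD of 3 libraries), with log2 fold changes of -0.51 and -0.34 (adjusted p = 0.24 and 0.17). Without dox-treated replicate 3 these were -0.24 and -0.36 (adjusted p = 0.22 and 0.13). *Flvcr2* and *Hebp2* were not found in the table.

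Among 17 regulators none was called and the median was -0.13. *Klf1*, for an erythroid factor that binds CACCC words, was at 195.7, 190.9 and 310.6 CPM with dox and at 338.6, 384.8 and 314.4 CPM without. *Gata1*, for the factor that binds GATA words, was at 159.3, 149.2 and 206.9 CPM with dox and at 220.3, 245.0 and 223.2 CPM without. For both, every dox-treated library was below every untreated one, with dox-treated replicate 3 the nearest, and the log2 fold changes of -0.61 and -0.43 did not pass the test (both adjusted p = 0.13). Without dox-treated replicate 3 they were -0.83 and -0.57 (adjusted p = 0.015 and 0.020). *Bach1*, for a heme-sensing repressor of *Hmox1*, overlapped between groups (log2 fold change 0.14, adjusted p = 0.42). *Aco1*, for an iron-sensing protein that binds elements of the kind printed above for *Alas2*, was at 124.0, 120.7 and 178.0 CPM with dox and between 96.3 and 110.4 CPM without (log2 fold change 0.40, adjusted p = 0.20). *Ppargc1a* was not found in the table.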

How the data were processed

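RNA from 3 dox-treated and 3 untreated MEP replicates was sequenced by the authors, who trimmed adapters (Cutadapt), quantified transcripts of the NCBIM37 Ensembl annotation (RSEM) and used limma for normalization. The deposited values are log2 CPM with 0.5 reads added, for 12101 genes. Whole reads were recovered from the steps of these values (100% within 0.01 reads) and used for depth and voom weights.

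The 12088 genes that reached 1 CPM in 3 or more libraries were tested with limma 3.58.1 (R 4.3.3, lmFit and eBayes, no block), with Benjamini–Hochberg adjustment over all genes and a threshold of 0.05. The fit was also run on simulated reads with the same dispersion for all genes and no outlying library. That run does not cover a library such as dox-treated replicate 3. CPM means and SDs leave out the added 0.5 reads. The log2 fold changes include them, which understates changes of low genes. Positions and lengths came from the NCBIM37 annotation. Other genes of the pathway and the markers came from hand-written lists, with symbols matched to that annotation or through RefSeq synonyms.

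The 9 genes and the lists were chosen with earlier results of these data known. Named besides the 9 genes were listed genes past the threshold, up to 2 per list with the largest fold changes among those whose groups do not overlap, the 3 genes most like each *Alas* gene, *Nanog* and markers. Outside this rule *Car1*, *Hba-a2*, *Hbb-b1*, *Apex2*, *Hmox2*, *Bach1* and *Aco1* were chosen after their values were seen. One gene that the rule covers is not reported here. Alternatives changed the filter, the added reads, variance model, weights, scaling, GC and length correction, block, threshold and libraries. Figures used Python 3.11.15 and matplotlib 3.10.9.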

Additional observations from a re-analysis of the deposited data

How the results depend on the processing

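With 3 libraries a group, changes of the size of *Alad* and *Cpox* sat near the threshold, and reads of *Alas2* were few. The adjusted p of *Alas1* was under 0.05 in 14 of 18 alternatives, from 0.0017 to 0.070, that of *Alad* in 6 and of *Cpox* in 4. That of the other 6 genes was above it in all 18. The median of all genes was -0.026, and 0.084 when libraries were brought to equal totals of reads. The causes of the changes below were not tested.

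Of all genes, 909 were higher and 747 lower when the variance followed a mean-variance trend, 2515 and 2601 when libraries had array quality weights, and 1273 and 939 at an adjusted p under 0.1. Of the same 12088 genes, 753 were higher and 494 lower with 1 CPM added, 615 and 570 with voom precision weights, and 648 and 537 after quantile normalization. After GC and length correction, with 11306 genes tested, 735 were higher and 491 lower. Leaving out each library gave from 92 to 1801 higher and from 36 to 1687 lower, the highest of each without dox-treated replicate 3. Of the 9 heme genes, 2 were lower with 1 CPM added, 3 with array quality weights, a mean-variance trend, voom precision weights or an adjusted p under 0.1, and from 0 to 3 with each library left out (0 without dox-treated replicate 1, dox-treated replicate 2 or untreated replicate 3). Of the 69 genes around the pathway, 34 were lower with array quality weights (with 4 higher), 6 with a mean-variance trend, 3 with voom weights, 1 after quantile normalization, 1 after GC and length correction (with 1 higher), 7 at an adjusted p under 0.1, and from 0 to 25 with each library left out (25 without dox-treated replicate 3), with 1 to 2 higher.

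The summed erythroid markers of dox-treated replicate 3 were 3000 CPM without *Car1*, and with dox the mean sum of megakaryocyte markers was 92.8 CPM without *Itga2b* (326.1 with it) and that of mast cell markers 74.0 CPM without *Gata2* (293.2 with it), settings chosen after seeing the data. Small differences changed sign. *Uros* was 0.072 at equal totals, 0.037 after GC and length correction and between -0.17 and 0.045 with each library left out. *Urod* was -0.075 with array quality weights and between -0.12 and 0.17 with each library left out, and *Ppox* between -0.055 and 0.19.

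Replicates share numbers in the labels, but same-numbered libraries did not deviate together (correlations of 0.018, -0.12 and -0.30), so the numbers do not pair them. With the replicate block, 53 genes were higher and 29 lower, 0 of the heme genes were lower (*Alas1*, adjusted p = 0.070) and 1 gene around the pathway, *Hmox1*, was higher. With the block and voom weights, 575 of all genes were higher and 351 lower. In that fit 2 heme genes and 1 gene around the pathway were lower, and 2 genes around the pathway were higher. The log2 ratio of *Alas2* to *Alas1* differed by 2.41 in pairs, with an SE of 0.17 against 0.44 without pairs (exact permutation p = 0.25, the smallest for 3 pairs).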
